A study of Mus musculus with 6 samples.

Results

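The nuclear-encoded respiratory chain was examined in ILC2s, the group 2 innate lymphoid cells, of the mouse lung. Its genes were taken by name, as the protein-coding entries of the deposited comparison that encode subunits of complexes I to V and cytochrome c. The rule found 85 of 39527 genes: 36 of complex I, 4 of complex II, 9 of complex III, 18 of complex IV, 17 of complex V and Cycs. Of these, 81 had an adjusted p-value. The study sequenced RNA from 3 KO and 3 WT samples. The KO mice carried the R5/+ genotype with floxed LKB1 (R5/+LKB1f/f), the WT mice R5/+ alone, so that the R5 allele was present in both. All mice had received IL-33 for 4 days, and each sample pooled the cells of 3 to 4 mice.

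The values are those of the authors' comparison of the genotypes, with 1 log2 fold change and 1 standard error for each gene, and a mean normalized count over all libraries in it. Values of single samples were not used here, because their names match no label. Which genotype is on top of the fold change is not stated. Signs are therefore kept as deposited, and no gene is placed on the KO or the WT side. As a point of orientation, Stk11, which encodes LKB1 and is the gene floxed in KO mice, had -1.34 ± 0.30 (SE, adjusted p = 0.000103) in the authors' deposited table. A gene is called negative or positive where its adjusted p was under 0.05 and its fold change had that sign.

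ILC2 markers were present, with a median of 2497 normalized counts per kilobase of exon over 11 genes, among them Il1rl1, the receptor of IL-33. Of these 11, Gata3 (0.63) was positive and Klrg1 (-0.44), Il13 (-1.06) and Thy1 (-1.98) were negative in the authors' deposited table. The 18 markers of other cell types had a median of 55.5, with Lyz2 (3396), Sftpc (7344) and Scgb1a1 (7654) far above it. Of the 16 of these that were tested, 13 lay below 0 and 0 were called either way. Their median log2 fold change was -0.59, where that of the 81 tested respiratory chain genes was -0.48. Scgb1a1 had no adjusted p and is not among the 16. It stood at -3.15 (95% interval -6.09 to -0.20) in the authors' deposited table. Respiratory genes are used by all these cells, and the part of admixed cells in the results was not tested. In such bulk samples, fewer cells of a type and less RNA per cell cannot be told apart.

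The respiratory chain sits in the inner mitochondrial membrane. Complex I passes electrons from NADH, and complex II those from succinate, to ubiquinone. Complex III moves them on to cytochrome c and complex IV to oxygen. Complexes I, III and IV pump protons, and complex V, the ATP synthase, lets the protons flow back to make ATP. Most subunits are encoded in the nucleus and imported, and a few, at the membrane core of complexes I, III, IV and V, by the mitochondrial genome. In ILC2s, oxidative phosphorylation is one of the routes that supply energy for growth and cytokine production.

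Nuclear respiratory chain genes included negative calls in all 5 complexes. Of 81 tested members, 57 (70.4%) were negative and 0 were positive, where 24.5% of all 14961 tested genes were called, 13.5% negative and 11% positive. The share was 24 of 36 in complex I, 3 of 4 in complex II, 7 of 9 in complex III, 9 of 14 in complex IV and 14 of 17 in complex V. The median log2 fold change over the 81 members was -0.48, beside -0.01 over all tested genes, and 79 members lay below 0. By complex, the medians were -0.47 for I, -0.47 for II, -0.60 for III, -0.46 for IV and -0.50 for V. Differences between complexes were not tested, since the table does not say how the errors of genes in the same libraries go together.

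**Figure D1:**
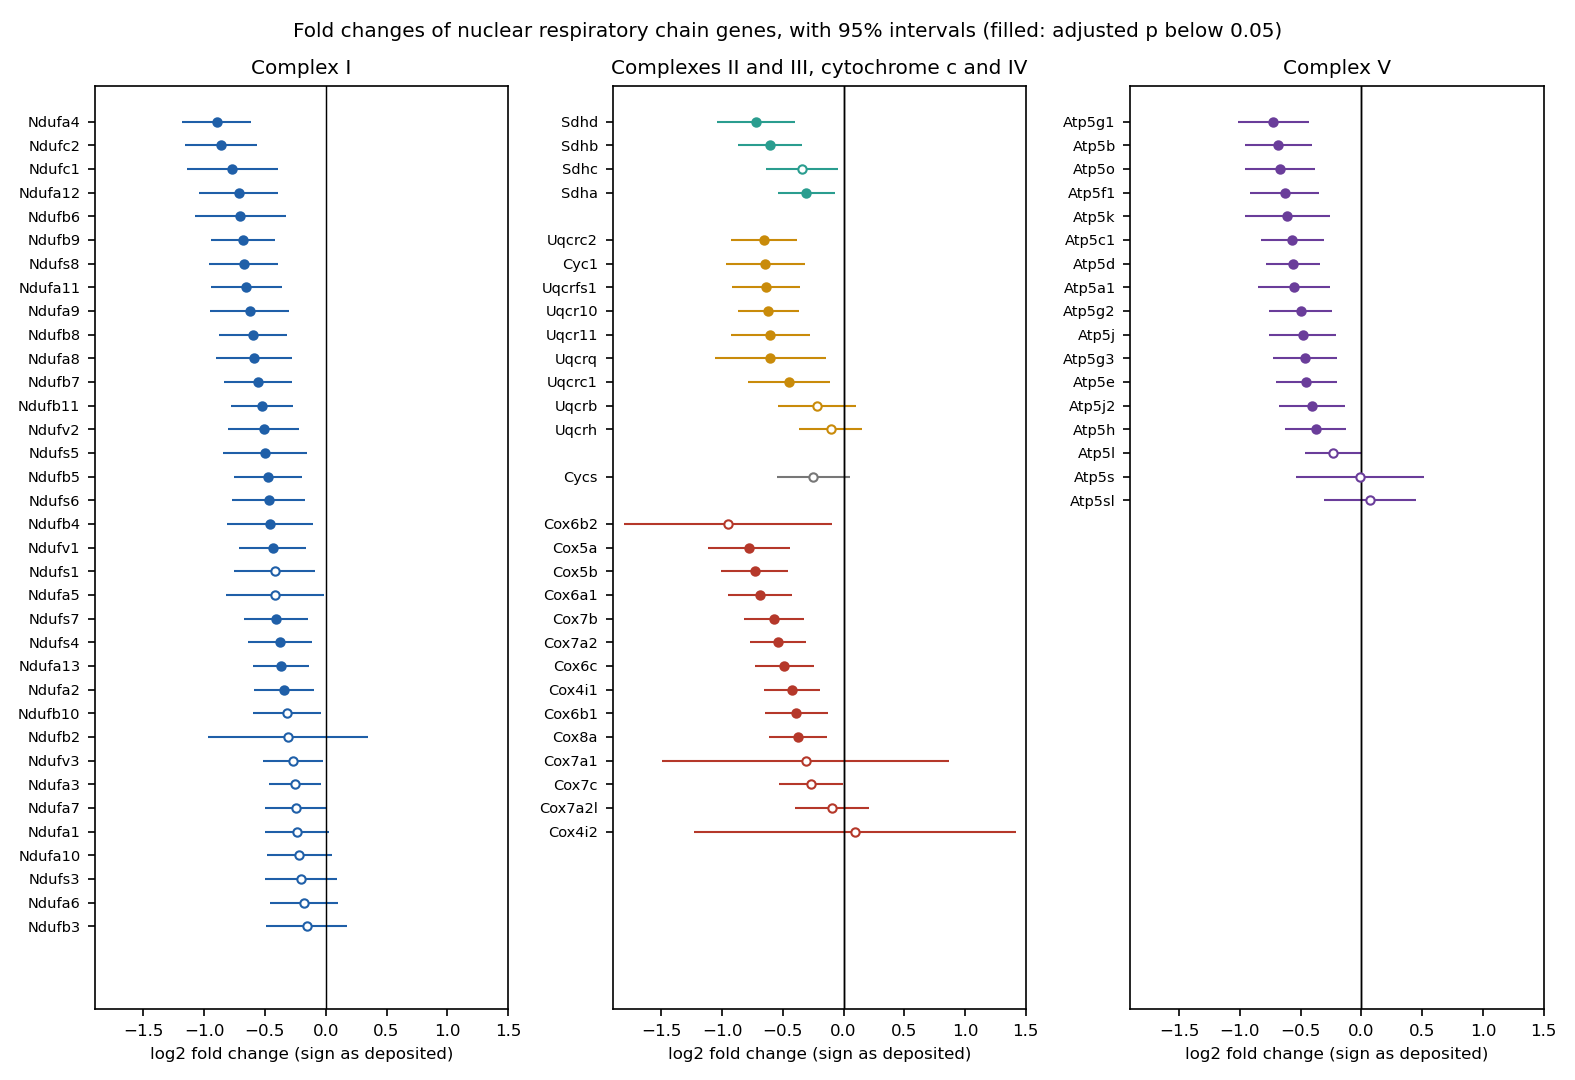
Log2 fold changes of 80 of the 81 tested members in the authors' deposited table (x axis, sign as deposited), with 95% intervals, by complex and in order of size; filled points have an adjusted p below 0.05. All filled points lie left of 0, and the only points right of 0 are Cox4i2 and Atp5sl.

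Among the 75 members that are usual subunits or cytochrome c, all were tested, all lay below 0, and their fold changes ran from -0.90 to -0.10 with a median of -0.50. Their SD was 0.18, where the standard error of a single gene had a median of 0.14. The 95% intervals of 66 of the 75 held that median and those of 9 did not. Outside it on the negative side were Ndufa4 and Ndufc2, and on the other Ndufa3, Atp5l, Ndufa10, Ndufs3, Ndufa6, Ndufb3 and Uqcrh.

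The members are mostly short genes, and fold changes in this table went with gene length. Their median exonic length was 1718 bases, against 4586 bases for tested protein-coding genes, and 65 of the 85 fell in the shortest 25% of those (at most 2879 bases). Among those shortest genes, 23.6% of genes were negative, with a median of -0.24. Among short genes that were also in the most abundant 25% of all tested genes, 44.2% were negative and the median was -0.31. With the members left out of that class, these were 42.2% and -0.30. Of the 46 members in it, 36 were negative, with a median of -0.52. The 20 members outside the shortest 25% had 12 negative calls and a median of -0.43. Across the 13036 tested protein-coding genes with a length, fold change and length had a Spearman rho of 0.263, and across the 81 members, which share their libraries, 0.056.

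With the trends on length and GC content removed from all protein-coding genes, 27 of 81 members were negative and 0 positive, against 11.5% negative over all genes so treated. The median of the members was then -0.25, and 13 of them lay above 0. Negative calls were then 11 of 36 in complex I, 1 of 4 in complex II, 2 of 9 in complex III, 4 of 14 in complex IV and 9 of 17 in complex V. Of the 57 calls, 26 were shared between the fits, 31 were lost, and Ndufs1 was gained (-0.47, adjusted p = 0.0297 from its normal score with Benjamini-Hochberg adjustment). Ndufa2, called at -0.34 in the authors' deposited table, stood at 0.05 after removal.

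**Figure D2:**
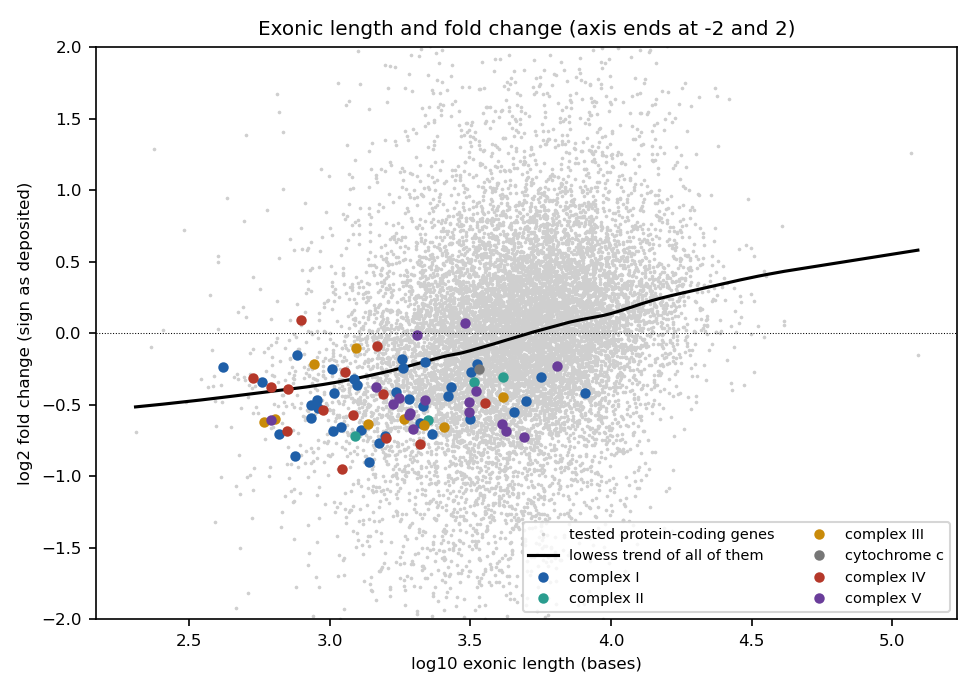
Exonic length (x axis, log10 bases) and log2 fold change as deposited (y axis, shown between -2 and 2) of tested protein-coding genes (grey) and of respiratory chain members (coloured by complex), with the lowess trend of all of them as a line. The line rises with length, and most members lie below it.

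**Figure D3:**
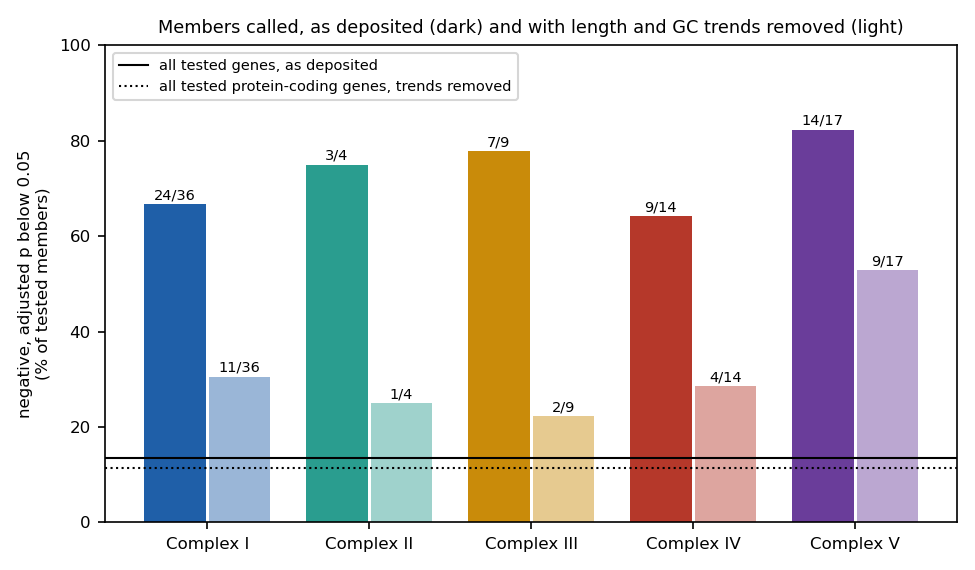
Share of tested members in each complex that were negative at an adjusted p below 0.05 (y axis, percent). Dark bars are as deposited, light bars with length and GC trends removed. The solid line gives the share over all tested genes as deposited. The dotted line gives the share over all tested protein-coding genes with the trends removed. In complex I the bars stand for 24 and 11 of 36 members, in complex V for 14 and 9 of 17.

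Complex I begins with its 7 nuclear core subunits, which carry the flavin, the iron-sulfur clusters and the quinone site. Of these, 5 were negative. Ndufs8, which holds iron-sulfur clusters on the way to the quinone, had -0.68 ± 0.14 (SE, adjusted p = 4.97e-05) in the authors' deposited table. At the NADH end of the complex stood Ndufv2 at -0.51 ± 0.15 and Ndufv1, the flavin subunit, at -0.44 ± 0.14 in the authors' deposited table. Ndufs7, next to the quinone site, had -0.41 ± 0.13 in the authors' deposited table. The iron-sulfur subunit Ndufs1 (-0.42 ± 0.17, adjusted p = 0.0553) and Ndufs3 (-0.20 ± 0.15, adjusted p = 0.352) were not called in the authors' deposited table. The call of Ndufs8 held with the length and GC trends removed, and those of Ndufv1 (-0.35), Ndufv2 (-0.25) and Ndufs7 (-0.25) did not. For Ndufv1, the adjusted p was then 0.054 with Benjamini-Hochberg adjustment of its normal score.

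The 28 accessory subunits, which surround the core and are needed for its assembly and stability, included 18 negative and 0 positive members. In the B series, which lies in the distal part of the membrane arm, 7 of 10 were negative, with Ndufb6 at -0.70 ± 0.19 and Ndufb9 at -0.68 ± 0.13 in the authors' deposited table. Ndufb3, at -0.15 ± 0.17, was not called in the authors' deposited table. Ndufb2, at 80.2 mean normalized counts the least abundant member of complex I, had -0.31 ± 0.34, an interval from -0.97 to 0.35, in the authors' deposited table. Of the 18 other accessory subunits, 11 were negative. The partners Ndufc2 (-0.86 ± 0.15, adjusted p = 4.90e-07) and Ndufc1 (-0.77 ± 0.19, adjusted p = 0.000633) stood at the negative end in the authors' deposited table. Ndufa12 had -0.72 ± 0.17 and Ndufa11 -0.65 ± 0.15 in the authors' deposited table. At the other end were Ndufa1, Ndufa10 and Ndufa6, between -0.23 and -0.18 in the authors' deposited table, none of which passed. With the length and GC trends removed, the calls of Ndufa11, Ndufa12, Ndufb5, Ndufb7, Ndufb8, Ndufb9 and Ndufc2 held. Those of Ndufa2, Ndufa8, Ndufa9, Ndufa13, Ndufb4, Ndufb6, Ndufb11, Ndufc1, Ndufs4, Ndufs5 and Ndufs6 were lost.

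Ndufa4 had the most negative fold change of all usual subunits, -0.90 ± 0.14 (adjusted p = 2.01e-08) at a mean of 1847 normalized counts in the authors' deposited table. This is a ratio of 0.536, with a 95% interval of -1.18 to -0.62 on the log2 scale. The gene (mm10 chromosome 6, 11900292 to 11907497, minus strand in GENCODE M21) bears a complex I name, but its protein is now known as a subunit of complex IV. Without it, complex I had 23 of 35 members negative. Its fold change was -0.55 (adjusted p = 0.00126 from its normal score with Benjamini-Hochberg adjustment) with the length and GC trends removed.

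Complex II, succinate dehydrogenase, is the one complex with nuclear subunits alone, and it also belongs to the citric acid cycle. Its membrane anchor Sdhd had -0.72 ± 0.16 (adjusted p = 0.000175), and its iron-sulfur subunit Sdhb -0.61 ± 0.13 (adjusted p = 0.000103), in the authors' deposited table. Sdha, the flavin subunit that oxidizes succinate and the most abundant of the 4 with 9576 mean normalized counts, had -0.31 ± 0.12 (adjusted p = 0.0418) in the authors' deposited table. The second anchor, Sdhc, was not called, at -0.34 ± 0.15 (adjusted p = 0.0839) in the authors' deposited table. Only the call of Sdhb held with the length and GC trends removed.

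In complex III both nuclear subunits that move electrons were negative. Cyc1, the cytochrome c1 heme protein, had -0.64 ± 0.17 (adjusted p = 0.0011), and Uqcrfs1, the Rieske iron-sulfur protein, -0.64 ± 0.14 (adjusted p = 0.000145), in the authors' deposited table. The core proteins Uqcrc2 and Uqcrc1 had -0.66 ± 0.14 and -0.45 ± 0.17 in the authors' deposited table. Of the 5 small subunits, Uqcr10, Uqcr11 and Uqcrq lay close together at -0.62, -0.60 and -0.60 in the authors' deposited table. Uqcrb (-0.22 ± 0.16) and Uqcrh (-0.10 ± 0.13, the hinge protein between cytochromes c1 and c) were not called in the authors' deposited table. The interval of Uqcrh, -0.36 to 0.16, does not reach the median of the usual subunits. With the length and GC trends removed, Cyc1 and Uqcrc2 kept their calls.

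Cytochrome c, the carrier from complex III to complex IV and a trigger of apoptosis when released, was not called. Cycs had -0.25 ± 0.15 (adjusted p = 0.243) at a mean of 2312 normalized counts in the authors' deposited table. Its 95% interval ran from -0.55 to 0.05.

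Of the 10 usual nuclear isoforms of complex IV, 9 were negative, with a median of -0.51. Cox5a and Cox5b, subunits next to the catalytic core, had -0.78 ± 0.17 (adjusted p = 0.000106) and -0.73 ± 0.14 (adjusted p = 5.97e-06) in the authors' deposited table. Cox6a1, a subunit that takes part in dimer formation and regulation, had -0.69 ± 0.13 (adjusted p = 7.23e-06) in the authors' deposited table. Cox7b, Cox7a2 and Cox6c followed between -0.57 and -0.49 in the authors' deposited table. Cox4i1, the usual isoform of the largest nuclear subunit, had -0.43 ± 0.12 at a mean of 5336 normalized counts in the authors' deposited table. Cox7c (-0.27 ± 0.13, adjusted p = 0.13) was the usual isoform without a call in the authors' deposited table. With the length and GC trends removed, Cox5a, Cox5b, Cox6a1 and Cox6c were called.

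The isoforms of particular tissues were scarce and gave no call. Per kilobase of exon, Cox4i2, an isoform known from lung and oxygen sensing, had 24.7 mean normalized counts where Cox4i1 had 3443. The muscle isoform Cox7a1 had 35.2 per kilobase where Cox7a2 had 2051, and the testis isoform Cox6b2 had 29.2 where Cox6b1 had 4541. Cox8a had 6268 per kilobase, and its fold change was -0.37 ± 0.12 in the authors' deposited table. Their fold changes carried wide errors, 0.09 ± 0.68 for Cox4i2, -0.31 ± 0.60 for Cox7a1 and -0.95 ± 0.44 for Cox6b2 in the authors' deposited table. The 95% intervals of all 3 held the median of the usual isoforms. Cox6a2, Cox7b2, Cox8b and Cox8c, the 4 members without an adjusted p, had means of 4.29, 1.77, 0.789 and 2.49 normalized counts in the authors' deposited table. Cox7a2l, which joins complexes III and IV into supercomplexes, was well expressed at 1822 mean normalized counts and stood at -0.09 ± 0.16 (adjusted p = 0.726) in the authors' deposited table. Its interval, -0.40 to 0.21, does not reach the median of the usual subunits.

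Complex V had the highest share of calls, with all but 1 of its 15 usual subunits negative and a median of -0.56. All 5 subunits of the F1 head and central stalk were negative. Atp5b, the catalytic beta subunit and with 31180 mean normalized counts the most abundant member, had -0.68 ± 0.14 (adjusted p = 2.45e-05) in the authors' deposited table. The alpha subunit Atp5a1 had -0.56 ± 0.15, the gamma subunit Atp5c1 -0.57 ± 0.13, the delta subunit Atp5d -0.56 ± 0.11 and the epsilon subunit Atp5e -0.45 ± 0.13 in the authors' deposited table. Each interval of these 5 held the value of the others.

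The c-ring, which turns as protons pass, is built of 1 protein made from 3 genes. These stood at -0.72 ± 0.15 for Atp5g1, -0.50 ± 0.13 for Atp5g2 and -0.47 ± 0.13 for Atp5g3 in the authors' deposited table. All 4 peripheral stalk genes, which hold the head in place, were negative, with Atp5o (the OSCP subunit) at -0.67 ± 0.15 and Atp5f1 at -0.63 ± 0.14 in the authors' deposited table. Of the small membrane subunits, Atp5k (-0.61 ± 0.18) and Atp5j2 (-0.41 ± 0.14) were negative and Atp5l (-0.23 ± 0.12, adjusted p = 0.142) was not in the authors' deposited table. Atp5s and Atp5sl, which carry the name but are not built into the enzyme, stood at -0.01 ± 0.27 and 0.07 ± 0.19 in the authors' deposited table. With the length and GC trends removed, the calls of Atp5b (-0.65) and Atp5g1 (-0.67) moved little, and those of Atp5e, Atp5g3, Atp5h, Atp5j2 and Atp5k were lost.

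**Figure D4:**
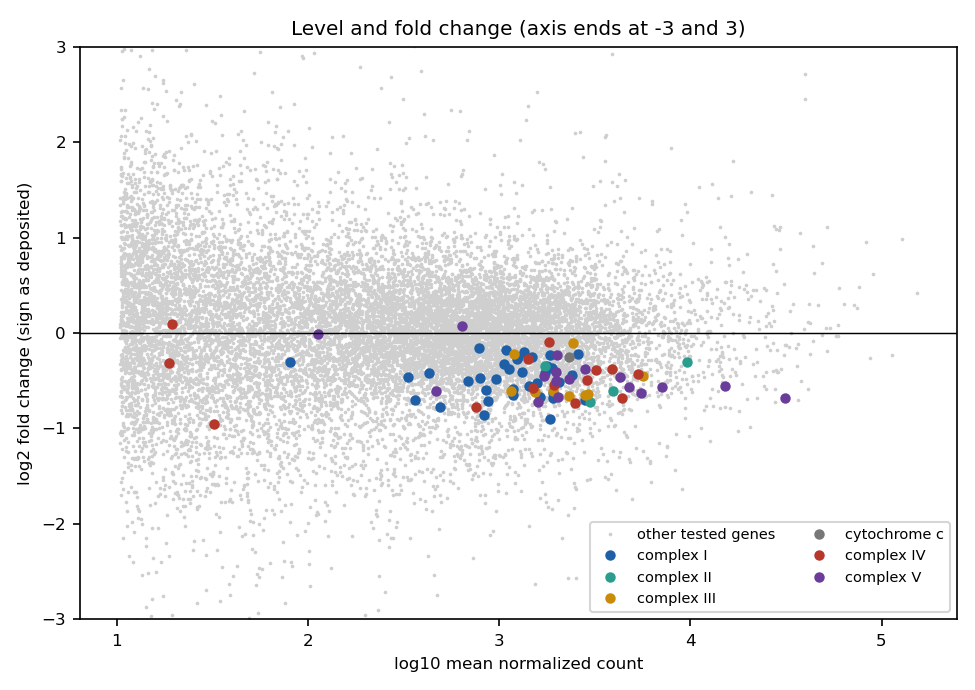
Mean normalized count (x axis, log10) and log2 fold change (y axis, sign as deposited, shown between -3 and 3) of tested genes (grey) and of members (coloured by complex). Most members lie in a band below 0 at high counts, and the members right at the left edge are the scarce complex IV isoforms.

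The levels of the members ran over a wide range without a matching order in their fold changes. Per kilobase of exon, tested usual subunits of complex V had a median of 1190 mean normalized counts, those of complex IV 1809, complex III 1367, complex II 2043 and complex I 831. All 85 members together held 1.16% of the summed mean normalized counts of the table, 0.485% in complex V and 0.268% in complex I. Across the 81 tested members, fold change and mean count had a Spearman rho of -0.130, as a description over genes of the same libraries.

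Promoters of the members were searched for the motifs of factors known to drive respiratory genes, and for an E-box as a control. The sequences were those of RefSeq on GRCm38.p6, from 250 bases before to 50 after each start, for 70 of the 85 members and 10406 tested protein-coding genes. For 61 of the 70 members, bases 11 to 40 after a listed start lay within a GENCODE M21 transcript of the gene. For the rest they did not, so the place of those windows is less certain. A match on either strand in any listed start was counted. The NRF1 motif (GCGCA, then any base, then GCGC) was found in 17 of 70 members (24.3%), beside 11.2% of all matched genes. The ETS motif of GABP (CCGGAAG) was found in 16 (22.9%), beside 19.5%. The YY1 motif (AAGATGGCG) was found in 8 (11.4%), beside 3.40%, and the ESRRA motif (AAGGTCA) in 8 (11.4%), beside 3.78%. The control E-box (CACGTG) was found in 7 (10%), beside 11.3%. Among members called negative, 15 of 48 held the NRF1 motif, 13 the ETS motif, 7 the YY1 motif, 6 the ESRRA motif and 4 the E-box. Among tested members not called, these were 2, 3, 1, 2 and 3 of 20. The differences were not tested. A match is a stretch of letters and no evidence of binding.

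Shown here are the 150 bases from 120 before to 30 after the first listed start of 6 negative members, to let the motifs be seen in place. One was taken from each complex for its matches, and Ndufa4, the most negative of the usual subunits, for having none in this window. Capitals mark the matches; all 6 lie on the minus strand of GRCm38.p6 and are written 5′ to 3′ in the direction of the gene. The windows lie at chr6:11907421-11907570 (Ndufa4), chr16:37654339-37654488 (Ndufb4), chr13:74350211-74350360 (Sdha), chr10:80406792-80406941 (Uqcr11), chr5:115348929-115349078 (Cox6a1) and chr5:108434370-108434519 (Atp5k).
Ndufa4: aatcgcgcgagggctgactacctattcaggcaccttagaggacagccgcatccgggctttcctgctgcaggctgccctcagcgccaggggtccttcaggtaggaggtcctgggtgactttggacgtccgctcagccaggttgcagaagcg
Ndufb4: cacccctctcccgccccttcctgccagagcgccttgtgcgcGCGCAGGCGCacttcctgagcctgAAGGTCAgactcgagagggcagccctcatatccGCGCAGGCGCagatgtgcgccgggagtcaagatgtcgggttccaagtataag
Sdha: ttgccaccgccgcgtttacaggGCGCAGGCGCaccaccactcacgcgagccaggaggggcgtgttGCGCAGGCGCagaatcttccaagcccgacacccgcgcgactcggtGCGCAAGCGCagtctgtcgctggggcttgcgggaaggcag
Uqcr11: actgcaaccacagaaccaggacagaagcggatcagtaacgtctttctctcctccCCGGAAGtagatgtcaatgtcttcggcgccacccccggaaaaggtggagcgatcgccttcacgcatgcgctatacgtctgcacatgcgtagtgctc
Cox6a1: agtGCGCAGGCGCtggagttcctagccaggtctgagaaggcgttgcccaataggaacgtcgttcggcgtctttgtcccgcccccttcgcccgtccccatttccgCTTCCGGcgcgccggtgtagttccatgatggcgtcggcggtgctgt
Atp5k: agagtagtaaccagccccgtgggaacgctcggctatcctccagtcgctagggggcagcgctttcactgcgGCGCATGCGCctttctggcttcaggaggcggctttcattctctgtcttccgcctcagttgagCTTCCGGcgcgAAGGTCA

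In this order, the capitals are none in Ndufa4, NRF1, ESRRA and NRF1 in Ndufb4, NRF1 at 3 places in Sdha, ETS in Uqcr11, NRF1 and ETS in Cox6a1, and NRF1, ETS and ESRRA in Atp5k. Their fold changes in the authors' deposited table were -0.90, -0.46, -0.31, -0.60, -0.69 and -0.61. As the 6 were picked, they say nothing of how matches and fold changes go together.

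Assembly factors build the complexes without staying in them, and were listed with Atpif1, an inhibitor of complex V. Of these 47 tested genes, 8 (17.0%) were negative and 1 positive, beside 13.5% and 11% over all genes, and 37 lay below 0, with a median of -0.16. Without Atpif1, 7 of 46 were negative. With the length and GC trends removed, 4 of them were negative and 4 positive, beside 11.5% negative over all genes so treated. The positive share over all genes so treated is not given here, so the 4 positive factors cannot be set against it. The difference from the subunits was not tested. They had a median mean of 313 normalized counts, where the usual subunits had 1847, and a median exonic length of 2627 bases. The complex IV factor Coa7 had -1.31 ± 0.26 and the complex I factors Ndufaf7 and Ndufaf2 had -0.74 ± 0.18 and -0.64 ± 0.22 in the authors' deposited table. Ecsit, which works in complex I assembly and in immune signalling, had -0.57 ± 0.19, and the complex III factor Uqcc2 -0.54 ± 0.16, in the authors' deposited table. Tmem186, another complex I factor, was the positive one, at 0.71 ± 0.20 in the authors' deposited table. Atpif1, which blocks complex V from running backwards, had -0.79 ± 0.16 (adjusted p = 1.11e-05) in the authors' deposited table. None of the 4 complex II factors was called, and they ran from -0.32 ± 0.20 for Sdhaf4 to 0.45 ± 0.27 for Sdhaf1, with the abundant Sdhaf2 at -0.10 ± 0.16, in the authors' deposited table. Abundance leaders of the other complexes' factors, Foxred1 (-0.11 ± 0.17), Uqcc1 (-0.08 ± 0.15), Coa5 (-0.15 ± 0.13) and Atpaf2 (-0.11 ± 0.14), were not called in the authors' deposited table. Nor were the most positive ones of complexes III, IV and V, Uqcc3 (-0.06 ± 0.16), Taco1 (0.47 ± 0.29) and Atpaf1 (0.13 ± 0.18), in the authors' deposited table.

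Of the subunits made in the mitochondrion, 6 of 12 tested were negative and 0 positive, beside 13.5% and 11% over all genes, with a median of -0.42. They had a median exonic length of 870.5 bases and a median mean of 2953 normalized counts. Among the shortest 25% of protein-coding genes that were also in the most abundant 25%, 44.2% were negative and the median was -0.31. The difference from that class was not tested. The mitochondrial subunits included mt-Cytb, of complex III, at -0.59 ± 0.11 and the complex I gene mt-Nd4 at -0.51 ± 0.14 in the authors' deposited table. The complex IV gene mt-Co1, the most abundant of them at 32639 mean normalized counts, stood at -0.15 ± 0.18 in the authors' deposited table, with no call. The most negative value, -0.69 ± 0.69 for mt-Atp8 in the authors' deposited table, belonged to a scarce gene and was not called. Nuclear copies of mitochondrial sequence can share these reads, which makes the values uncertain. Of the 5 listed subunits that the naming rule leaves out, 2010107E04Rik (-0.47 ± 0.16) was negative, while Usmg5, a small complex V protein, stood at -0.02 ± 0.13 in the authors' deposited table. Ndufab1, the acyl carrier protein in complex I, was not called, at -0.27 ± 0.20 in the authors' deposited table.

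Around the chain, where the shares over all genes are again 13.5% negative and 11% positive, 4 of 11 tested supercomplex and cristae factors were negative and 0 positive, among them the prohibitins Phb2 (-0.73 ± 0.15) and Phb (-0.56 ± 0.19) and the cristae protein Apool (-0.75 ± 0.16) in the authors' deposited table. Immt, the organizer of cristae junctions, stood at -0.21 ± 0.15 and Higd2a at -0.03 ± 0.14 in the authors' deposited table, with no call. Of 11 ubiquinone synthesis genes, 3 were negative and 0 positive, with the hydroxylase Coq7 at -1.55 ± 0.25 in the authors' deposited table. Coq10b, the most abundant of them, was not called, at 0.45 ± 0.20 in the authors' deposited table. Of 6 tested donors of electrons to ubiquinone, 1 was negative, Etfa (-0.67 ± 0.14), the electron transfer flavoprotein of fatty acid oxidation, in the authors' deposited table. Gpd2, the glycerol phosphate dehydrogenase, had 0.20 ± 0.15 in the authors' deposited table and was not called.

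Of 13 regulators of respiratory genes, 2 (15.4%) were negative and 3 (23.1%) positive, beside 13.5% and 11% over all genes. Gabpb1, the activating partner in GABP, had -0.54 ± 0.14, and Tfam, which packages and transcribes mitochondrial DNA, -0.52 ± 0.18, in the authors' deposited table. Gabpa, the DNA-binding partner, stood at 0.01 ± 0.13 and Nrf1 at -0.11 ± 0.15 in the authors' deposited table, and neither was called. The coactivator Ppargc1b had 0.77 ± 0.26, the mitochondrial RNA polymerase Polrmt 0.37 ± 0.15 and Myc, a driver of growth genes, 1.10 ± 0.21 in the authors' deposited table. Ppargc1a, the best known coactivator of mitochondrial biogenesis, was scarce at 16.0 mean normalized counts, with 0.57 ± 0.75 in the authors' deposited table.

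**Figure D5:**
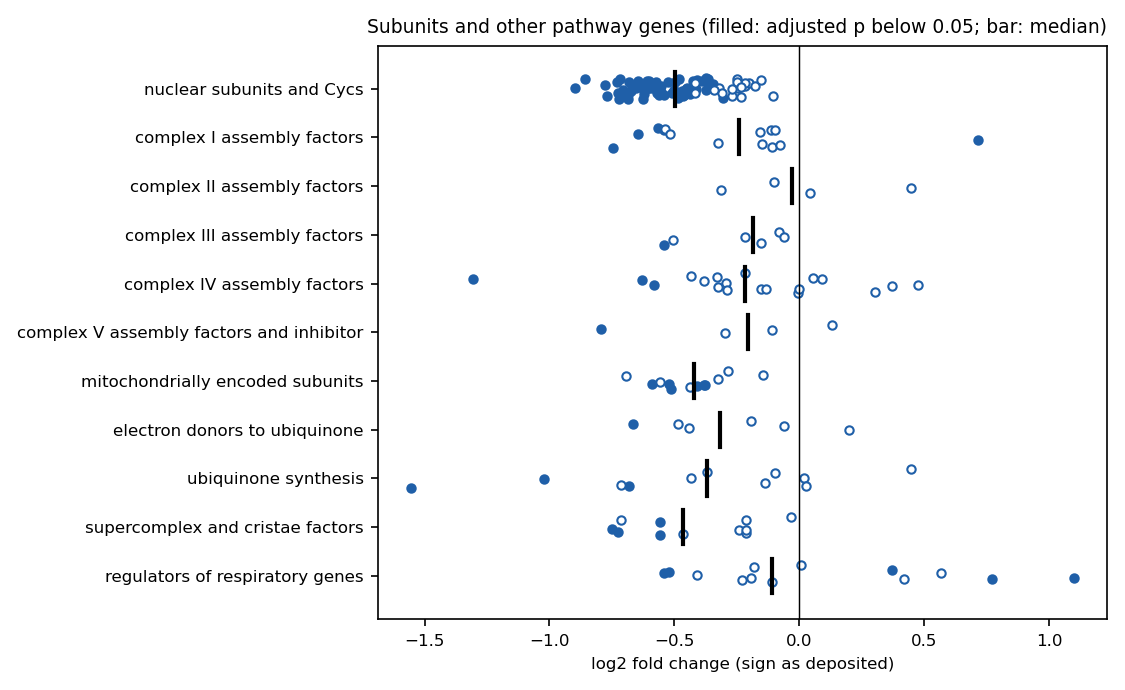
Log2 fold changes as deposited (x axis) of the 75 usual subunits with Cycs and of the other tested pathway genes by list; filled points have an adjusted p below 0.05 and bars are medians. The subunits cluster left of 0 with a median of -0.50, while the regulators spread to both sides.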

How the data were processed

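RNA of sorted lung ILC2s was sequenced in 3 KO and 3 WT samples, from full-length cDNA made with a SMART-Seq HT kit, per the labels' protocols. The submitters' processing notes name HISAT2, Cufflinks and mm10. How reads were counted, on which annotation and strand, and which libraries entered the comparison is not stated there. Per the file headers, the authors deposited the p-value of every gene, raw and adjusted, the test score behind it, the log2 fold change and error, and the signal (normalized counts averaged over libraries). The score matched fold change over error to within 2.41e-07, and the adjusted p a Benjamini-Hochberg adjustment over 14961 genes to within 7.56e-07. The fit may hold other libraries, so the p-values cannot be read as 3 samples against 3. Another 12 columns of per-sample values, under 6 different names, matched no label and were not used. For that reason edgeR, planned for them, was not run. Depths per sample are not analysed here. Precision is that of the deposited standard error.

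Calls used an adjusted p below 0.05. Lengths (union of exons), GC content of the longest transcript and coordinates came from GENCODE M21 on mm10, which held 99.1% of the gene identifiers. Trends were removed by lowess (fraction 0.3) on length and then GC content, with deposited errors, and the recalculation was tested on simulated data. Motifs were searched in RefSeq promoters. One member is counted but not reported here by name. Members and lists were chosen with earlier results of these data known. Named members were the extremes, the most abundant, core and catalytic subunits and isoform pairs of each complex; further ones were named after their values were seen. The tools were statsmodels 0.14.6, scipy 1.17.1, matplotlib 3.10.9, numpy 2.4.6 and pandas 2.3.3 in Python 3.11.15. The alternatives were stricter calls, other sets of genes for the adjustment, centring and removal of the trends.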

Additional observations from a re-analysis of the deposited data

How the results depend on the processing

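The count of 57 negative members, beside 13.5% of all tested genes, became 28 when at least a 1.5-fold difference was also required. With the length and GC trends removed it became 27, beside 11.5% over all genes so treated. Under the other 5 alternatives it lay between 42 and 58. The share over all genes at 1.5-fold and under those 5 is not given here. Whether the excess over all genes held there cannot be read from these counts. No alternative gave a positive member. The median of -0.48 moved to -0.25 with the trends removed and lay between -0.50 and -0.45 under the others. Negative assembly factors, Atpif1 included, were 5 at 1.5-fold and 4 with the trends removed, where positive ones were also 4. The positive share over all genes with the trends removed is not given here. Removal of the trends put Cox7a1 (0.069), Cox7a2l (0.19), Ndufb3 (0.28) and Uqcrh (0.26) above 0; none of the 4 was called either way. The calls of Sdha and Uqcrc1 were also lost when p was adjusted over all genes with a p-value (adjusted p = 0.107 for each) and when fold changes were centred on the most abundant 25% of genes. Taking the first listed start alone, chosen after seeing the data, kept each motif share within 2 percentage points.

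No paired analysis was possible because the per-sample columns carry no replicate numbers of the labels. For the same reason leaving out a replicate, other normalizations of the counts, a filter on per-sample counts and DESeq2 were not run. A minimum mean of 100 normalized counts over all libraries was among the alternatives. The scarce isoforms of complex IV are limited by their standard errors.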

Other observations

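Exons of 25 members overlap those of a gene on the opposite strand in GENCODE M21, and without strand information such reads cannot be told apart. The overlap exceeded 25% of exonic bases for 2 members, Ndufb6 (257 bases, with Smim27) and Ndufa13 (375 bases, with Tssk6). The partners were scarce, at means of 27.6 and 17.7 normalized counts. Atp5j shares 12.7% of its exonic bases with Gabpa, which encodes the DNA-binding partner in GABP and had a mean of 1203 normalized counts. In the authors' deposited table Atp5j had -0.48 and Gabpa 0.01, and the interval of Atp5j ran from -0.76 to -0.21.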
